A study of Mus musculus with 6 samples.

Results

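The 10 genes described here are erythroid regulators and membrane genes, measured by RNA sequencing in mouse bone marrow progenitors. They comprise the transcription factor genes Gata1, Klf1, Zfpm1 and Gfi1b, the erythropoietin receptor gene Epor, the carbonic anhydrase genes Car1 and Car2, and the membrane genes Ank1, Ermap and Tspo2. They were taken by name from the 56750 rows of the deposited TPM table, where each had 1 row, and all 10 were among the 13496 genes tested. TPM gives a transcript's share of the library after correction for its length. One group was C57BL/6 mice given 2.5% dextran sulfate sodium (DSS) for 5 days, the DSS-induced colitis (DIC) mice. The other was control C57BL/6 mice, and neither their handling nor any animal's age is stated in the labels. Both groups had 3 libraries, made from bone marrow cells sorted as lineage-negative, Sca1-positive and cKit-positive (LSK). The libraries are called DIC 1 to 3 and control 1, 2 and 4 after the table's columns. Beyond 3 mice per group the labels do not describe the replication, and the p-values reflect how far these libraries spread.

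Red cells arise from stem cells through progenitors that switch from GATA2 to GATA1, depend on erythropoietin and then build a spectrin-based membrane skeleton and fill with hemoglobin. GATA1 is the zinc-finger factor at the centre of that program, FOG1 (encoded by Zfpm1) is its cofactor, KLF1 activates globin and other erythroid genes through CACCC elements, and GFI1B represses genes of other fates. GATA1, FOG1 and GFI1B also act in megakaryocytes, and GATA1 in mast cells and eosinophils. In LSK cells, which hold stem cells and multipotent progenitors, erythroid genes mark cells that have begun to take this path.

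The libraries of each group differed in their share of neutrophil transcripts. A list of 16 neutrophil markers took 22.6%, 15.5% and 19.0% of TPM in DIC 1, 2 and 3, against 4.22%, 12.6% and 3.03% in controls 1, 2 and 4. Every DIC library lay above every control on this measure, but control 2 lay nearer to DIC 2 than to the other controls. Of the genes of the sort, Kit averaged 89.4 ± 6.57 TPM in DIC libraries and 74.0 ± 23.2 TPM in control libraries (SD, n = 3 each). Ly6a, which encodes Sca1, averaged 19.4 ± 4.14 TPM in DIC and 34.2 ± 15.2 TPM in control. In the list of 10 sort and stem cell markers 9 were tested, with 4 positive and 5 negative fold changes and 0 called by limma. At an unadjusted p under 0.05, 0 were higher and 2 lower, against 6.43% and 13.8% of all tested genes. The 2 lower genes were the progenitor surface genes Cd48 and Cd34 (limma adjusted p = 0.212 and 0.218). Cd48 was at 138 to 160 TPM in DIC and 214 to 260 TPM in control. Cd34 was at 63.9 to 95.8 TPM in DIC and 102 to 129 TPM in control. In both, every DIC library lay below every control, as in 18.4% of all tested genes. The T cell genes Cd3e, Cd4 and Cd8a were at most 1.57 TPM in any library. The neutrophil surface gene Ly6g was at 71.3 to 367 TPM in DIC and 7.50 to 48.8 TPM in control, so the lineage-negative label was not matched by the absence of neutrophil transcripts. In bulk values, fewer cells of a type and less RNA per cell cannot be told apart.

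All 10 genes had a higher mean in DIC than in control, and none passed the test. The fold changes of log2(TPM + 1) ran from 0.32 for Gata1 to 1.20 for Ank1, with a median of 1.04, while the median over all tested genes was -0.08. A positive fold change was shared by 41.5% of tested genes. By limma with Benjamini-Hochberg adjustment over all genes, 0 of the 10 were called, against 0.0593% of all genes in either direction. The members' adjusted p lay between 0.212 and 0.49. At an unadjusted limma p under 0.05, 7 of the 10 were higher, against 6.43% of tested genes. In Epor, Ank1 and Tspo2 every DIC library lay above every control library, which makes 3 of 10, against 7.08% of tested genes. Ank1 reached 1 TPM only in the 3 DIC libraries and so passed the filter for testing through them. Its separation was thus fixed in advance, and it is also among the 7 with an unadjusted p under 0.05. Without control 2, where 3.93% of tested genes were called higher, Tspo2 alone of the 10 was called (log2 fold change 1.38, limma adjusted p = 0.0351). All 10 fold changes were positive with each single library left out.

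**Figure D1:**
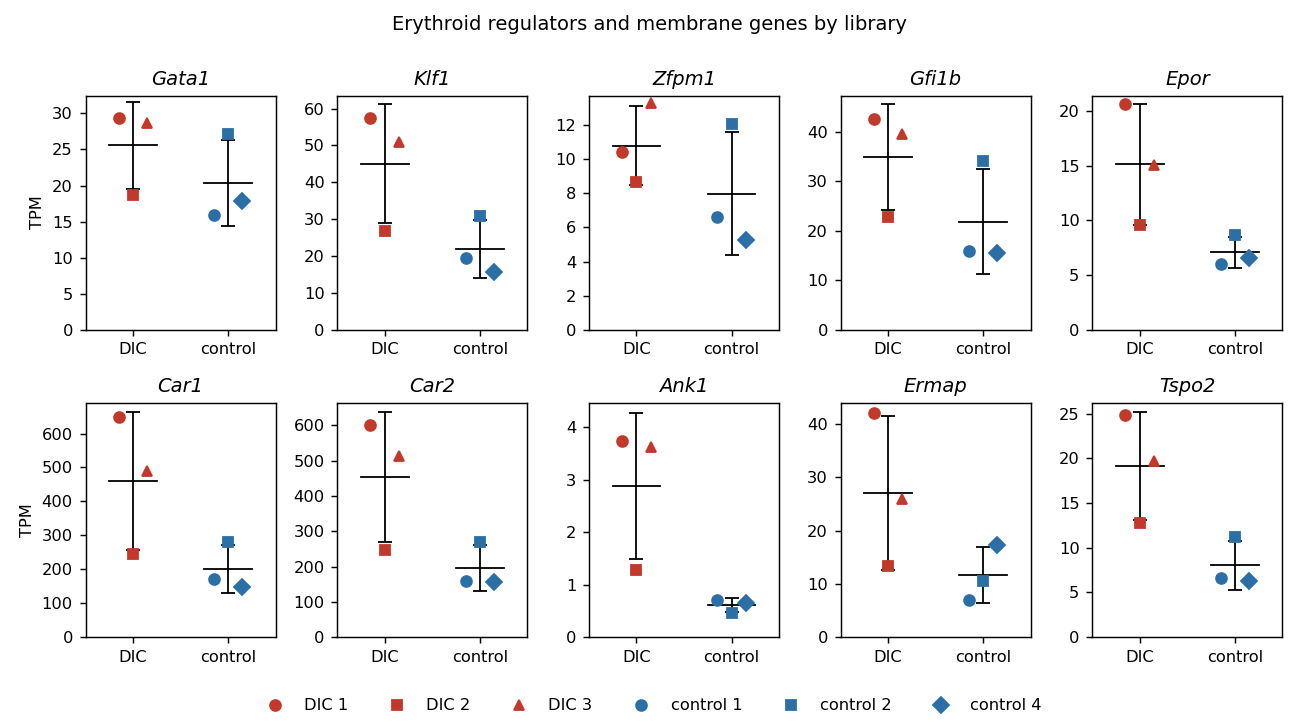
TPM of the 10 genes, 1 panel each with a linear axis from 0, in 3 DIC libraries (red) and 3 control libraries (blue). Horizontal lines are group means, whiskers are 1 SD and each marker shape is a library. DIC 2 is the lowest DIC library in all 10 panels.

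The promoters are shown for the short words that GATA1 and KLF1 are known to bind. RefSeq windows on GRCm38.p6, from 250 bases before to 50 bases after the annotated start, were found for 7 of the 10 genes (Gata1, Klf1, Zfpm1, Gfi1b, Epor, Ermap and Tspo2). The GATA search used the word AGATAA, the word AGATAG, the word TGATAA and the word TGATAG, and the KLF search the word CACCC, each on both strands. The words do not overlap each other in the windows printed. A GATA word was present in 4 of the 7 windows, against 29.8% of 32851 mouse windows, and a CACCC word in 7 of the 7, against 57.5%. The windows with both words were those of Klf1, Gfi1b, Epor and Ermap, 4 of 7 against 14.9% of all windows. A match is only a match of letters, and binding was not measured. These 4 are shown on the gene's strand, 5′ to 3′, with the matches in capitals. The capitals read TTATCA or else TTATCT where a GATA word, and GGGTG where a CACCC word, lies on the opposite strand.
Klf1, chr8:84901732-84902031, plus strand: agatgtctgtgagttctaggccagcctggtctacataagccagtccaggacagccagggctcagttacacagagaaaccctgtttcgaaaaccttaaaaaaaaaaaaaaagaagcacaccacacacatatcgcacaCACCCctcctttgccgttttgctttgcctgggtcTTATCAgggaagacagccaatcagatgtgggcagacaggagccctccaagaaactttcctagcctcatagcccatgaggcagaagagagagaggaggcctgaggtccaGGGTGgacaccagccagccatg
Gfi1b, chr2:28621933-28622232, minus strand: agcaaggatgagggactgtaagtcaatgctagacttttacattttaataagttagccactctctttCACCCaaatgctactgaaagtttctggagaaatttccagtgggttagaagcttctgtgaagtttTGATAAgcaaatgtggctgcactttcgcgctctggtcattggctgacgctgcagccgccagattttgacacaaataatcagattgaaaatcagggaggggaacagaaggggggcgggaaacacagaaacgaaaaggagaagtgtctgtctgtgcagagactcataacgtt
Epor, chr9:21963527-21963826, minus strand: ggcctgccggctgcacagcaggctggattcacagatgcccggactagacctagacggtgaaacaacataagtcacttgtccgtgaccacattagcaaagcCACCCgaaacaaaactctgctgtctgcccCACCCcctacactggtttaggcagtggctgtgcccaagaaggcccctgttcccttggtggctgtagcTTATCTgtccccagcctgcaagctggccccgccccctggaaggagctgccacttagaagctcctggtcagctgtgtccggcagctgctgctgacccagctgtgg
Ermap, chr4:119189946-119190245, minus strand: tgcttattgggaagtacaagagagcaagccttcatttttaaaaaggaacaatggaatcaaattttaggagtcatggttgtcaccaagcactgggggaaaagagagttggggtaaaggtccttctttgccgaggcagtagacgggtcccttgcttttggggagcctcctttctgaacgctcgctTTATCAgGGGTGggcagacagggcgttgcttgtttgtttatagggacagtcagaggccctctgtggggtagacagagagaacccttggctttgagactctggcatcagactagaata
The GATA word began 54 bases before the start in Epor, 67 in Ermap, 80 in Klf1 and 120 in Gfi1b. In Ermap it lay next to a CACCC word that began 60 bases before the start.

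Among the 4 transcription factor genes, Klf1 differed most between the groups and Gata1 least. Klf1 (ENSMUSG00000054191) was at 57.4, 26.8 and 50.9 TPM in DIC 1, 2 and 3, against 19.4, 30.9 and 15.8 TPM in controls 1, 2 and 4. DIC 2 lay below control 2, so the groups overlapped. Klf1 averaged 45.0 ± 16.1 TPM over the DIC libraries and 22.0 ± 7.89 TPM over the controls (SD, n = 3 each). The log2 fold change was 0.98 ± 0.34 (SE, limma adjusted p = 0.213). Gata1 (ENSMUSG00000031162) was at 29.4, 18.7 and 28.7 TPM in DIC, against 16.0, 27.2 and 17.9 TPM in control. DIC 2 sat with controls 1 and 4, and control 2 with DIC 1 and 3. The log2 fold change of Gata1 was 0.32 ± 0.25 (SE, limma adjusted p = 0.49).

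Gfi1b and Zfpm1 also had their highest control value in control 2. Gfi1b (ENSMUSG00000026815), the repressor gene, was at 42.5, 22.7 and 39.5 TPM in DIC 1, 2 and 3, against 15.8, 34.0 and 15.5 TPM in controls 1, 2 and 4. Control 2 exceeded DIC 2, and the log2 fold change was 0.70 ± 0.36 (SE, limma adjusted p = 0.308). Zfpm1 (ENSMUSG00000049577), the FOG1 gene, was at 10.4, 8.68 and 13.3 TPM in DIC, against 6.61, 12.1 and 5.25 TPM in control. It was the single member whose highest library was DIC 3, and control 2 came second. Its log2 fold change was 0.45 ± 0.30 (SE, limma adjusted p = 0.425). With control 2 left out, the log2 fold changes were 1.25 for Klf1, 1.06 for Gfi1b, 0.76 for Zfpm1 and 0.54 for Gata1. Zfpm1 was at 0.22 without control 4. Gata1 was lowest at 0.18 without control 1, and at 0.21 without DIC 1 and 0.53 without DIC 2.

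The other factors of these complexes had fold changes on both sides of 0. In a list of 27 partners and neighbours of the erythroid factors, 26 were tested, 11 had positive and 15 negative fold changes, the median was -0.02 and 0 were called by limma (1 higher and 2 lower at an unadjusted p under 0.05, against 6.43% and 13.8% of all tested genes). E2f2, a cell-cycle factor gene that is a known KLF1 target, was at 17.4, 13.0 and 13.6 TPM in DIC, against 7.40, 9.88 and 6.70 TPM in control (log2 fold change 0.81 ± 0.20 SE, limma adjusted p = 0.212). The DIC libraries of E2f2 all lay above the controls, which made 1 of the 26, against 7.08% of tested genes. Gata2, the factor gene of earlier progenitors and of mast cells, was at 15.4, 14.7 and 19.8 TPM in DIC, against 20.0, 40.4 and 24.0 TPM in control, so that no DIC library reached the lowest control (log2 fold change -0.67 ± 0.27 SE, limma adjusted p = 0.23). Lmo2 and Ldb1, which encode the bridging subunits of the GATA1 and TAL1 complex, also lay lower in every DIC library. Every DIC library lay below every control in 4 of the 26, against 18.4% of tested genes. The list's count of such genes thus did not exceed that of the whole table. Lmo2 averaged 181 ± 9.36 TPM in DIC libraries and 222 ± 12.8 TPM in controls, and Ldb1 36.1 ± 3.46 TPM in DIC libraries and 43.9 ± 3.52 TPM in controls (SD, n = 3 for each group, limma adjusted p = 0.221 and 0.285).

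Epor was among the 3 genes without overlap between the groups. Epor (ENSMUSG00000006235), which encodes the cytokine receptor that carries the erythropoietin signal to JAK2 and STAT5, was at 20.6, 9.58 and 15.1 TPM in DIC 1, 2 and 3, against 6.04, 8.68 and 6.53 TPM in controls 1, 2 and 4. The lowest DIC library, DIC 2, stood just above the highest control, control 2. Epor averaged 15.1 ± 5.53 TPM over the DIC libraries and 7.08 ± 1.40 TPM over the controls (SD, n = 3 each). The log2 fold change was 0.95 ± 0.28 (SE, limma adjusted p = 0.212).

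The signalling genes downstream of the receptor went in different directions. Of 24 entries for erythropoietin receptor signalling, 22 were tested, with 14 positive and 8 negative fold changes and a median of 0.15. Limma called 0 of them, and at an unadjusted p under 0.05 none was higher and 3 of 22 were lower, against 13.8% of all tested genes that were lower. In 3 every DIC library lay below every control, against 18.4% of tested genes, so the list's counts of lower genes did not exceed those of the whole table. Epo itself was listed at 0 in all 6 libraries. The genes with the lowest p were feedback and response genes that STAT5 is known to induce. Socs2, which encodes a suppressor of cytokine signalling, was at 0.94, 1.35 and 1.09 TPM in DIC, against 3.84, 3.52 and 2.56 TPM in control (log2 fold change -1.01 ± 0.22 SE, limma adjusted p = 0.212). Cish, another suppressor of this family, was at 1.59, 1.19 and 1.84 TPM in DIC, against 3.82, 2.01 and 6.44 TPM in control (limma adjusted p = 0.221). In both genes the DIC libraries were all lower than the controls. Pim1, a survival kinase gene, overlapped between the groups at 3.51 to 7.31 TPM in DIC and 5.72 to 21.1 TPM in control (limma adjusted p = 0.223). Socs1 was at 0.69 to 0.96 TPM in DIC and 1.25 to 2.00 TPM in control (limma adjusted p = 0.249). It reached 1 TPM only in the controls and so passed the filter for testing through them. Its separation, 1 of the 3 counted above, was thus fixed in advance.

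Car1 and Car2 had the highest levels of the 10 and nearly equal values in each library. They encode cytosolic carbonic anhydrases, which interconvert carbon dioxide and bicarbonate and are among the early abundant enzymes of erythroid progenitors. Car1 (ENSMUSG00000027556) was at 647, 246 and 488 TPM in DIC 1, 2 and 3, against 173, 282 and 148 TPM in controls 1, 2 and 4. Car2 (ENSMUSG00000027562) was at 601, 246 and 512 TPM in DIC, against 160, 271 and 156 TPM in control. In both genes DIC 2 lay below control 2, and the other DIC libraries above all controls. The log2 fold changes were 1.14 ± 0.39 for Car1 and 1.16 ± 0.37 for Car2 (SE, limma adjusted p = 0.213 and 0.212).

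The ratio of Car1 to Car2 TPM stayed near 1. It was 1.08, 0.998 and 0.954 in DIC and 1.08, 1.04 and 0.948 in control, although the levels themselves spanned 148 to 647 TPM for Car1. The neighbouring genes of the same chromosome 3 cluster, which lie in the order Car13, Car1, Car3 and Car2 in the GRCm38 annotation, stayed low. Car3 was at 1.93, 3.86 and 4.26 TPM in DIC, against 2.11, 5.35 and 5.98 TPM in control, and Car13 at 1.39, 1.38 and 1.19 against 1.77, 0.97 and 2.69 TPM. Both overlapped between the groups and had negative fold changes (-0.29 ± 0.38 and -0.23 ± 0.28 SE, limma adjusted p = 0.685 and 0.661). Of 14 other carbonic anhydrase genes 3 were tested, all with negative fold changes, and limma called 0 (0 also at an unadjusted p under 0.05). The third, Car9, which encodes a hypoxia-induced membrane enzyme, was at 6.53 to 10.2 TPM in DIC and 10.5 to 16.3 TPM in control (limma adjusted p = 0.294).

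The 3 membrane genes had log2 fold changes between 1.10 and 1.20. Ank1 (ENSMUSG00000031543), which encodes the ankyrin that ties band 3 to spectrin, was at 3.73, 1.28 and 3.63 TPM in DIC 1, 2 and 3, against 0.71, 0.46 and 0.66 TPM in controls 1, 2 and 4. All controls were below 1 TPM and control 2 was the lowest of the 6 libraries, unlike in the other 9 genes. The log2 fold change was 1.20 ± 0.33 (SE, limma adjusted p = 0.212). With a pseudocount of 0.1 in place of 1 it was 1.95, since at this level the pseudocount sets part of the value. Tspo2 (ENSMUSG00000023995), an erythroid relative of the mitochondrial translocator protein linked to cholesterol handling, was at 24.8, 12.8 and 19.7 TPM in DIC, against 6.66, 11.2 and 6.29 TPM in control. The groups did not overlap, and the log2 fold change was 1.15 ± 0.30 (SE, limma adjusted p = 0.212).

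Ermap ordered the controls differently. Ermap (ENSMUSG00000028644), which encodes an immunoglobulin-superfamily protein of the red cell membrane, was at 42.1, 13.3 and 25.9 TPM in DIC 1, 2 and 3, against 6.97, 10.6 and 17.3 TPM in controls 1, 2 and 4. Control 4 stood above DIC 2, while in 6 of the other 9 genes control 4 was the lowest library. The log2 fold change was 1.10 ± 0.45 (SE, limma adjusted p = 0.237). With 1 library left out it ran from 0.72 without DIC 1 to 1.51 without DIC 2. The ubiquitous paralog of Tspo2, Tspo, went the other way, at 602, 711 and 610 TPM in DIC against 1142, 720 and 962 TPM in control (log2 fold change -0.53 ± 0.19 SE, limma adjusted p = 0.218); it was named after its values were seen.

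Other membrane and skeleton genes of red cells were mostly higher in DIC as well. Of 29 such genes 23 were tested, with 19 positive and 4 negative fold changes and a median of 0.48. Limma called 0, and at an unadjusted p under 0.05 9 of the 23 were higher and 1 was lower, against 6.43% and 13.8% of all tested genes. In 7 of the 23 every DIC library exceeded every control, against 7.08% of tested genes. The genes with the lowest p were Kel, Epb42, Rhd and Add2, which encode the Kell blood group protein, protein 4.2, the Rh blood group protein and beta-adducin. Kel was at 26.2, 13.4 and 13.2 TPM in DIC, against 3.82, 6.22 and 8.10 TPM in control (log2 fold change 1.38 ± 0.34 SE, limma adjusted p = 0.212). Rhd was at 49.4, 17.3 and 33.4 TPM in DIC, against 12.4, 14.4 and 8.66 TPM in control (1.33 ± 0.37). Epb42 was at 4.35, 1.85 and 3.27 TPM in DIC, against 0.81, 0.40 and 1.05 TPM in control, which like Ank1 put control 2 at the bottom. Slc4a1, the band 3 gene, named after its values were seen, was at 5.40, 0.09 and 1.35 TPM in DIC, against 0.96, 0.47 and 1.54 TPM in control, with overlap (limma adjusted p = 0.746).

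**Figure D2:**
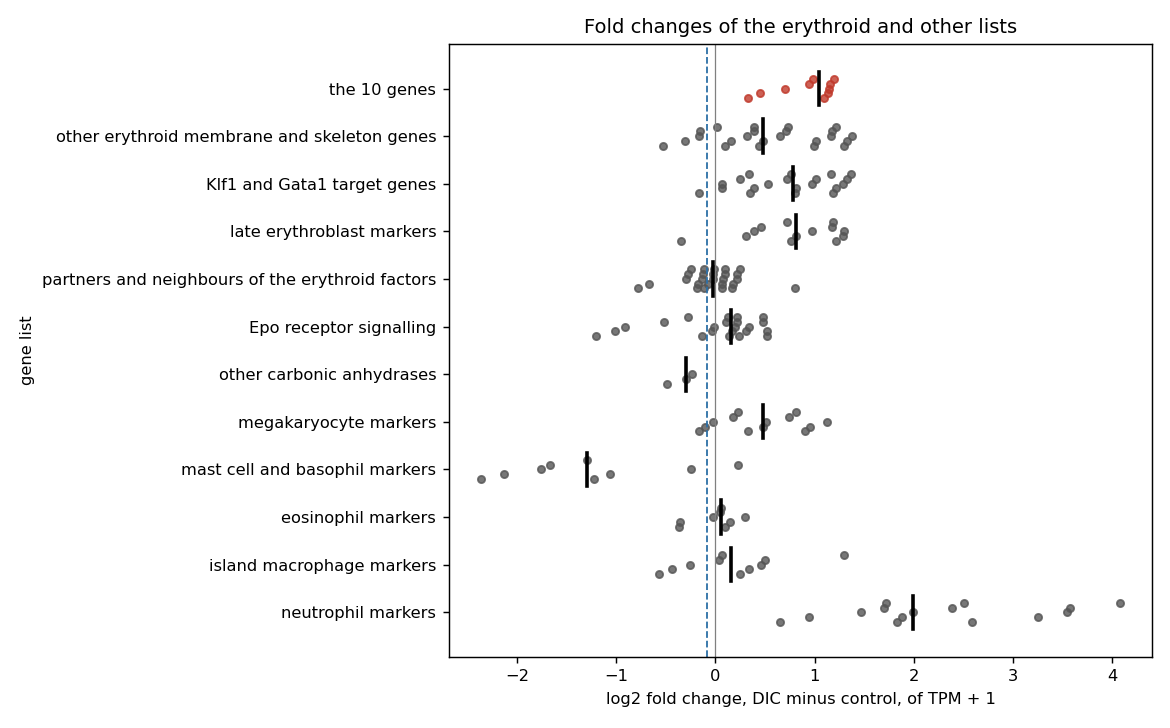
Log2 fold change of TPM + 1, DIC minus control, of each tested gene (points) in the 10 genes (red) and in 11 other lists (grey). Black bars are list medians, 1.04 for the 10 genes, and the dashed line is the median of all tested genes, -0.08.

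Across the 10 genes the libraries fell into a repeated order. DIC 1 was the highest library for 9 genes and DIC 3 for the other, and DIC 3 exceeded every control in all 10. DIC 2 was the lowest DIC library in all 10 genes and exceeded every control in 3. Control 2 was the highest control in 8 genes. DIC 2 stood above control 2 in 4 of the 10 genes, above control 4 in 9 and above control 1 in 10. The summed level of the 10 genes was 1479, 606 and 1197 TPM in DIC 1, 2 and 3, against 411, 688 and 390 TPM in controls 1, 2 and 4.

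**Figure D3:**
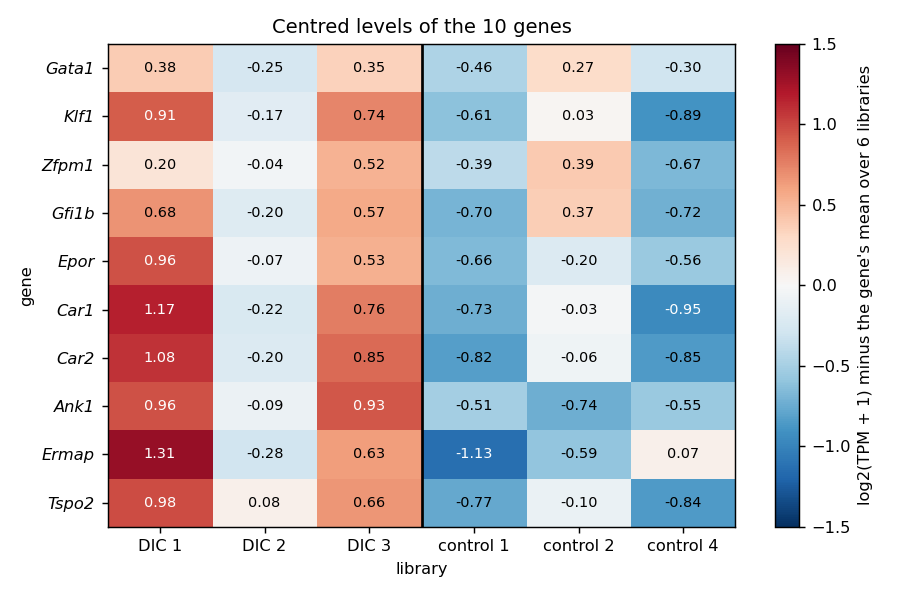
Level of each of the 10 genes (rows) in the 3 DIC (left) and 3 control libraries (right), as log2(TPM + 1) minus the gene's mean over the 6 libraries. Control 2 is at 0.27 for Gata1 and 0.37 for Gfi1b, but at -0.20 for Epor and -0.74 for Ank1.

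The levels of the genes themselves covered a wide range. Averaged over the 6 libraries, TPM descended from Car1 at 331 and Car2 at 325 through Klf1 at 33.5, Gfi1b at 28.3, Gata1 at 23.0, Ermap at 19.4, Tspo2 at 13.6, Epor at 11.1 and Zfpm1 at 9.39 to Ank1 at 1.75. Car2 exceeded Klf1, and Zfpm1 exceeded Ank1, in 6 of 6 libraries. All other neighbours in this order changed places in at least 1 library, with Car1 above Car2 in 3 of 6. Among tested genes, Car1 ranked at percentiles 91.7 to 98.8 over the libraries, Gata1 at 53.2 to 68.9 and Ank1 at 1.37 to 22.5.

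Ratios of TPM between genes within a library do not depend on how the library is scaled. Gata1 relative to Gata2, the pair that exchanges along the erythroid path, was at 1.91, 1.27 and 1.45 in DIC 1, 2 and 3, against 0.80, 0.673 and 0.747 in controls 1, 2 and 4. Gata1 thus exceeded Gata2 in all DIC libraries and was below it in all controls, control 2 included. Most of this came from Gata2, with a log2 fold change of -0.67 against 0.32 for Gata1. Gata2 by itself lay lower in every DIC library, as did 18.4% of tested genes, whereas Gata1 overlapped between the groups. On the log2 scale with 1 TPM added, the ratio averaged 0.58 ± 0.29 over DIC libraries and -0.42 ± 0.13 over controls (SD, n = 3 each). The difference of 1.00 had an exact permutation p of 0.1, two-sided, the smallest that 3 against 3 can give. The ratio of Gata1 to Spi1, the myeloid factor gene also known as PU.1, overlapped between the groups at 0.138, 0.104 and 0.145 in DIC, against 0.0702, 0.125 and 0.0922 in control (difference of 0.44 on the log2 scale, exact permutation p = 0.2, two-sided). These 2 ratios have raw p-values that become 0.2 each after Benjamini-Hochberg adjustment.

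Relative to Gata1, 6 of the other 9 genes lay higher in every DIC library than in every control. This ratio was chosen after the values were seen, it has Gata1 in common to all 9, and Gata1 differed least of the 10 between the groups. The same held for 3.26% of all tested genes set against Gata1. The 6 were Klf1, Epor, Car1, Car2, Ank1 and Tspo2. Of these, Ank1 was tested only because its DIC libraries reached 1 TPM, which favours its separation here too. Tspo2 per Gata1 was at 0.844, 0.686 and 0.687 in DIC, against 0.417, 0.412 and 0.351 in control. Epor per Gata1 was at 0.701, 0.514 and 0.526 in DIC, against 0.378, 0.320 and 0.365 in control. In both, DIC 2 lay with DIC 3 and control 2 with the other controls, unlike in the levels. Car1 per Gata1 was at 22.0, 13.2 and 17.0 in DIC, against 10.8, 10.4 and 8.28 in control. Zfpm1 and Gfi1b per Gata1 overlapped between the groups, as did Ermap, where control 4 reached 0.967 against 0.714 to 1.43 in DIC.

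**Figure D4:**
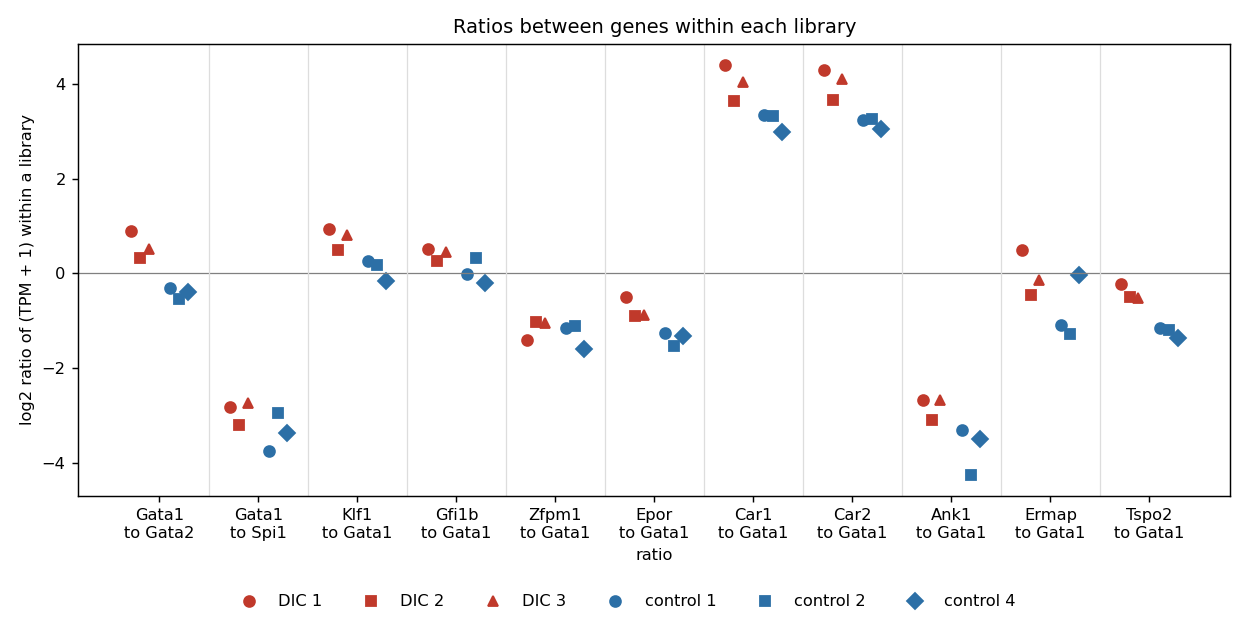
Log2 ratio of (TPM + 1) between the named genes in each DIC (red, left) and control library (blue, right), with 1 marker shape per library. Gata1 to Gata2 is above 0 in the 3 DIC libraries and below 0 in the 3 controls, while Gata1 to Spi1 overlaps.

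Target genes of KLF1 and GATA1 were mostly higher in DIC. Of 23 entries 20 were tested, with 19 positive fold changes and a median of 0.79, and limma called 0 (8 higher at an unadjusted p under 0.05, against 6.43% of tested genes). The list has 7 genes in common with the membrane list and 9 with the late erythroblast list. Cldn13, a claudin gene expressed in mouse erythroid cells, was at 58.4, 23.3 and 42.6 TPM in DIC, against 16.3, 17.6 and 10.4 TPM in control (log2 fold change 1.37 ± 0.35 SE, limma adjusted p = 0.212). Markers of later erythroblasts had 12 of 13 tested members with positive fold changes and a median of 0.82, 0 called by limma and 5 higher at an unadjusted p under 0.05, against the same 6.43%. Rhag was at 30.3, 9.48 and 20.6 TPM in DIC, against 8.82, 7.57 and 4.73 TPM in control, and Hemgn overlapped at 16.0, 7.83 and 12.8 against 5.67, 7.92 and 3.56 TPM. The summed late erythroblast list was at 789, 219 and 489 TPM in DIC and 248.6, 213 and 276 TPM in control, so on this sum DIC 2 lay within the control range.

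Among markers of other cell types limma called 0 genes in every list. All 15 tested neutrophil markers had positive fold changes (median 1.99), 14 were higher at an unadjusted p under 0.05 (against 6.43% of tested genes), and in 10 every DIC library exceeded every control (against 7.08%). Without control 2, limma called 11 of the 15 higher, against 3.93% of tested genes. Their summed share was highest in DIC 1, then DIC 3, DIC 2 and control 2, close to the order seen in the erythroid genes. With the mean of these markers as a covariate, the fold changes of 6 of the 10 genes were negative and the median of the 10 was -0.19. The median of all genes was then -0.10, and limma adjusted p was 0.9998 for each of the 10. Since the summed share was higher in every DIC library than in every control, 6 libraries can hardly separate this covariate from the group. These signs therefore carry little information. With the 16 neutrophil genes removed and TPM rescaled, the median of the 10 was 1.24 while that of all genes moved to 0.10 from -0.08, and the same number of 3 genes did not overlap. Their part in the erythroid differences was not tested beyond these values.

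Megakaryocyte markers, which share GATA1, FOG1 and GFI1B, had 10 positive and 3 negative fold changes among 13 tested (median 0.48, 4 higher at an unadjusted p under 0.05, against 6.43% of tested genes). Limma called 0 of them, and 4 higher without control 2, against 3.93% of tested genes. Pf4, the platelet factor 4 gene, was at 211, 211 and 183 TPM in DIC, against 77.2, 139 and 161 TPM in control (limma adjusted p = 0.217). The summed list was at 489 to 555 TPM in DIC and 205 to 430 TPM in control. Mast cell and basophil markers, the other GATA lineage, had negative fold changes in 8 of 9 tested genes (median -1.30, 7 lower at an unadjusted p under 0.05, against 13.8% of tested genes). Limma called 0 of them, and 4 lower without control 2, against 8.45% of tested genes. The basophil protease genes Prss34 and Mcpt8 were at 132 to 209 against 415 to 1800 TPM and at 93.5 to 146 against 286 to 1122 TPM in DIC and control. The mast cell genes Tpsb2 and Tpsab1 were listed at 0 in all libraries. The list's sum was 440, 513 and 607 TPM in DIC, against 1637, 1036 and 3496 TPM in control. None of the 8 tested eosinophil markers had an unadjusted p under 0.05, with a sum of 1790 to 2681 TPM in DIC and 1619 to 4231 TPM in control. The part of these cells in the levels of Gata1, Gata2, Zfpm1 and Gfi1b was not tested.

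The genes whose profile was most like the mean of the 10 were found among 8697 candidates by the root-mean-square difference of centred log2(TPM + 1) over the 6 libraries. They were Rdh12 (0.087), Sept8 (0.087), Carhsp1 (0.088), Cyth3 (0.094), Hrh2 (0.101) and Svil (0.104). Epor, at 0.094, was the closest of the 10 to their own mean, and Ermap, at 0.444, the farthest. Rdh12, a retinol dehydrogenase gene, was at 32.4, 16.7 and 25.9 TPM in DIC, against 9.27, 17.0 and 11.1 TPM in control. Sept8, a septin gene, was at 10.9, 5.51 and 9.38 TPM in DIC, against 3.58, 5.83 and 3.02 TPM in control. In both, control 2 slightly exceeded DIC 2, as in Klf1 and the carbonic anhydrases. The mean profile by which they were chosen has the same order, at -0.07 in control 2 and -0.15 in DIC 2. The likeness is therefore not a separate observation.

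The annotation of GRCm38 places no other gene over Gata1, Klf1, Gfi1b, Epor, Car2, Ermap or Tspo2. Car1 overlaps Gm16399, which was listed at 0 in all libraries, and Ank1 overlaps 5 genes, of which the 4 with a row, Mir486 among them, were at most 0.04 TPM. Zfpm1 overlaps Gm20388 on the same strand, which had no value of its own here, so its reads could be divided differently under another annotation.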

How the data were processed

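Cells sorted as Lin- Sca1+ cKit+ bone marrow cells were profiled by RNA sequencing in 3 DSS-induced colitis (DIC) and 3 control mice of the C57BL/6 strain, per the labels. The authors deposited 1 table of TPM values, rounded to 2 decimals. Each library summed to 1000000 or within 1 of it. The submitters' processing notes name fastp 0.19.5, HISAT2 2.1.0, StringTie 2.1.2 and the build GRCm39. Which annotation release was used is not stated in the labels. Since TPM holds no read totals, depth is unknown and no counting interval was given.

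Symbols were matched by Ensembl identifier from a table of mouse gene names, which named 52081 of 56750 rows. Overlapping and neighbouring genes were read from GENCODE M21 on the earlier build GRCm38, so no coordinates were set beside the TPM values. Table columns 1 and 4 of the controls were used as members of the control group, because 1 control's title and description disagree on its number. The table held 0 further value columns.

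The 13496 genes that reached 1 TPM in 3 or more libraries were tested. A limma model (version 3.58.1, R 4.3.3) of log2(TPM + 1) had the group as its term and let the prior variance follow the mean. Two-sided p-values were adjusted over these genes by the Benjamini-Hochberg method and called at 0.05. Fold changes are DIC minus control on the log2(TPM + 1) scale, which understates the change of low genes. Ratios of Gata1 to Gata2 and to Spi1 were compared by an exact permutation test (scipy 1.17.1), which cannot go below 0.1 with 3 libraries against 3. The fit was tested on simulated data with known changes. Alternatives covered the pseudocount, the filter on low values, the scaling, the trend, a neutrophil covariate and each library left out.

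The 10 genes and the gene lists were chosen with earlier results of these data known. All 10 genes are named. In each other list the called members were named and, with fewer than 4, the tested members with the lowest p up to 4. Genes named beyond that were chosen after their values were seen. Promoter windows are those of RefSeq on GRCm38.p6.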

Additional observations from a re-analysis of the deposited data

How the results depend on the processing

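Of 129 values of the 10 genes under alternatives, 122 kept their direction and stayed above the adjusted threshold of 0.05, as in the limma fit reported, 1 passed it (Tspo2 without control 2) and 6 reversed. The reversals came with the neutrophil covariate, with log2 fold changes of -0.51 for Gata1, -0.24 for Klf1, -0.47 for Zfpm1, -0.61 for Gfi1b, -0.26 for Car1 and -0.14 for Car2, and a median of -0.19 over the 10. The median of all genes was -0.10 in that fit. The SE of these 6 values ran from 0.24 for Gfi1b to 0.36 for Zfpm1. The cause was not tested. The median of the 10 otherwise ran from 0.748 without DIC 1 to 1.35 without DIC 2, and set against the median of all genes it was 1.12 as reported and 1.14 after rescaling without neutrophil markers. The count of called genes over the whole table, 8, was 5 with a pseudocount of 0.1, 0 without a filter (which tests more genes) and 0 with the covariate, where 3241 and 316 genes had an unadjusted limma p under 0.05. It ran from 0 to 1671 with 1 library left out. It was 0 without DIC 1 and without control 4 (1239 and 1458 genes at an unadjusted p under 0.05), and 1671 without control 2. Members called ran from 0 to 1. The Gata1 to Gata2 difference ran from 0.839 to 1.12 and the Gata1 to Spi1 difference from 0.241 to 0.64 with 1 library left out. No paired analysis was possible because the title and description of 1 control carry different numbers, which leaves 1 number shared between the groups without conflict, and the planned replicate block was not run. Ank1 could not be fitted with the filter of 5 TPM. TPM gives no depth, so the precision of low genes such as Ank1 is not known.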

Other observations

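Genes of the macrophages that surround erythroblasts in marrow islands had fold changes on both sides of 0, and 7 of 10 tested were positive. The median log2 fold change was 0.16, and limma called 0. At an unadjusted limma p under 0.05, 2 were higher and 1 was lower, against 6.43% and 13.8% of all tested genes. The groups separated completely with DIC higher in 2 of the 10 and with DIC lower in 1, against 7.08% and 18.4%. For the lower genes, neither count was above the table's share. Slc40a1, the iron exporter ferroportin, was at 88.3, 62.7 and 71.7 TPM in DIC, against 20.7, 55.2 and 22.0 TPM in control, every DIC library above every control (limma adjusted p = 0.212). Vcam1, an adhesion molecule of these macrophages, was at 83.3, 77.0 and 76.7 TPM in DIC, against 39.8, 67.7 and 63.3 TPM in control (limma adjusted p = 0.237). Cd163, the hemoglobin scavenger receptor, lay lower in every DIC library, at 6.65, 5.51 and 6.17 TPM in DIC against 7.77, 12.1 and 9.19 TPM in control (limma adjusted p = 0.214). Siglec1, a defining marker of these cells, was at most 0.37 TPM in any library.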
